A study of Mus musculus with 31 samples.

Results

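The genes described here are 10 that mark endothelial cells, the lining of blood vessels, measured in eyes of mouse embryos: Kdr, Flt1, Tek, Tie1, Cdh5, Cldn5, Pecam1, Icam2, Plvap and Robo4. Every probe of the array that carries one of these gene names was taken and kept apart, which gave 14 of 55681 probes, and 10 of the 34832 gene names on the array. The eyes came from E13.5 embryos and fell into 4 groups by the labels, with 3 WT female, 3 WT male, 3 Ftx-/Y male (Ftx KO male) and 11 Ftx-/- female (Ftx KO female) eyes. By the study's methods, Ftx-deficient mice were made with C57BL/6N embryonic stem cells and kept on that strain, their targeted allele also lost miRNA374 and miRNA421, and every eye looked normal from outside (type 1 for the mutants) and had its pigmented epithelial layer removed by surgery. The labels and methods do not say which eyes shared an embryo or a litter, so each p-value below measures only the spread between these eyes.

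At this stage the mouse eye is fed by the hyaloid vasculature, a network that enters through the optic fissure, fills the vitreous space and wraps the lens, together with the choroidal vessels outside the retina. Endothelial cells sense VEGF through the receptor tyrosine kinases Kdr and Flt1, respond to angiopoietins through Tek with its partner Tie1, and are held together by Cdh5 and Cldn5. The hyaloid vessels regress later in life, and macrophages are known to take part in that regression.

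The arrays lay on 4 slides. Slide 1 carried the WT eyes of both sexes together with the first Ftx-/Y eye. Slide 2 carried the remaining Ftx-/Y eyes (2 and 3) beside the first 3 Ftx-/- eyes, and slides 3 and 4 carried Ftx-/- eyes only, numbers 4 to 7 and 8 to 11. WT and Ftx-/- females thus shared no slide, so slide and genotype cannot be told apart in the female comparison. The WT female eyes are numbered 1, 2 and 4. Each Ftx-/- eye was measured on 2 arrays, which were averaged, and the others on 1. The arrays had a median intensity between 34.2 and 74.99 and 48.2% to 70.4% of probe spots well above background. Ftx itself was read by A_55_P2175002, which the array lists under the older name B230206F22Rik. It was detected above background on every WT array (3 a sex), on none of the 3 Ftx-/Y arrays and on 9 of the 22 Ftx-/- arrays, with a signal of 50.04 to 134 in WT females, 101 to 110.3 in WT males, 13.2 to 18.6 in Ftx-/Y males and 8.25 to 37.4 in Ftx-/- females. A second probe of the same name, A_55_P2175007, was dimmer and did not separate all groups, with 2 of 3 WT female arrays, 0 of 3 WT male arrays, 0 of 3 Ftx-/Y arrays and 1 of 22 Ftx-/- arrays above background.

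Of the 14 endothelial probes, 7 probes of 6 genes (both Kdr probes, Flt1, Cldn5, Icam2, Plvap and Robo4) had a mean signal above 500 in WT females and entered the test over 14052 probes. The signal is the scanner's background-subtracted intensity after normalization between arrays, and is compared only within a probe or, for sums, over the same probes of a list. The other 7 probes lay below that minimum and were fitted without one, over all 55681 probes, which is said beside each. As the minimum was set on WT females alone, it favours, near 500, probes that are higher in WT females than in Ftx-/- females. Cdh5, for one, stayed below it with a mean of 468 in WT females, though its mean in Ftx-/- females was 644. The 10 genes were well detected as a set: 12 of the 14 probes were well above background on all 31 arrays. The exceptions were the Tek probe, which reached this mark on all 3 arrays of WT females, on 1 of 3 of WT males, on 2 of 3 of Ftx-/Y males and on 19 of 22 of Ftx-/- females, and the Flt1 probe A_52_P405145, well above background on 1 of 22 Ftx-/- arrays and on 0 of the 9 others. The latter had a signal of 6.53 to 44.9 over the 20 eyes, and no change is given for it.

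Sequences are shown for the probes that carry the main comparisons below. Both Kdr probes are shown because they moved apart, each by its first 30 of 60 bases, 5′ to 3′, as the array's annotation gives them. They were designed to the minus strand of mm9, at chr5:76329309-76329368 for A_51_P316553 and at chr5:76330395-76330454 for A_55_P2094469, so they start 1086 bases apart.
Kdr A_51_P316553: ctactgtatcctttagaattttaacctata
Kdr A_55_P2094469: tgtttaaatggaagtggtcctgtcccggct
The Tek and Tie1 probes are shown whole because these receptors are close relatives and their probes can be set against each other base by base. Capitals mark the 39 of 57 aligned bases (68.4%) that both probes share when the Tek probe is set 3 bases to the right, with 8 identical bases in a row at most. The Tek probe lies at chr4:94540624-94540683 on the plus strand and the Tie1 probe at chr4:118144132-118144191 on the minus strand (mm9).
Tek A_55_P2262136: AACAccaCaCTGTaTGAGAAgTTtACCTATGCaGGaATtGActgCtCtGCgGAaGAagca
Tie1 A_51_P177171: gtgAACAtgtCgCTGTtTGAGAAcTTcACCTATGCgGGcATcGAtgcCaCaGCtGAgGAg

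Promoter sequences (250 bases before to 50 bases after the start of the gene, RefSeq, GRCm38.p6) were matched by symbol for 6 of the 10 genes, namely Kdr, Flt1, Tek, Tie1, Cldn5 and Robo4. Members of the ETS family are well known transcription factors of endothelium, and the core AGGAAG was searched on both strands. It was found in 3 of the 6 promoters, those of Tie1, Flt1 and Robo4, and in 35.4% of 32851 mouse promoters in the same table. The longer AACAGGAA, in which a FOX and an ETS core meet and which can share letters with the first, was found in 0 of 6 and in 2.65% of all. The SOX core AACAAT was found in 1 of 6, that of Tek, and in 10.7% of all promoters. For the GATA core, GATAAG, these were again 1 of 6, that of Tek, and 7.44%. A match is a string of letters and not a bound site. The 3 promoters with an AGGAAG match, those of Tie1, Flt1 and Robo4, are shown, with capitals for the match on either strand. They lie at chr4:118489800-118490099 (minus strand), chr5:147725962-147726261 (minus strand) and chr9:37401722-37402021 (plus strand).
Tie1 promoter: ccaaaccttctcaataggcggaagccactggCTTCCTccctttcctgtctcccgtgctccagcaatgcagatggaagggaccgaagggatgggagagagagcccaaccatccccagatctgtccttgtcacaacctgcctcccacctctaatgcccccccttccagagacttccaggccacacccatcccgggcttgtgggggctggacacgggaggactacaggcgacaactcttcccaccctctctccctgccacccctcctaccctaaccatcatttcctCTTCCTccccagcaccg
Flt1 promoter: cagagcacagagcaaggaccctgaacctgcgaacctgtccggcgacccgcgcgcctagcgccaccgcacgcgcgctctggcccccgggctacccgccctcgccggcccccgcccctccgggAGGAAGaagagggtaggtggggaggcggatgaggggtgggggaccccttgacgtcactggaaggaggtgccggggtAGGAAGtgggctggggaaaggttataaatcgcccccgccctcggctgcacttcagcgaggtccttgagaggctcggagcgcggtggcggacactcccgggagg
Robo4 promoter: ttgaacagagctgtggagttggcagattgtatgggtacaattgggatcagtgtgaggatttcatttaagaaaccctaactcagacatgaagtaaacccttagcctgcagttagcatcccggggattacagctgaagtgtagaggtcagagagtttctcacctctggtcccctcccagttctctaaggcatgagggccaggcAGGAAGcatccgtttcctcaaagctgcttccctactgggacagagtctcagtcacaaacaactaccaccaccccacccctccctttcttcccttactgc

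Between Ftx-/- and WT females, 1 of the 7 tested endothelial probes passed an adjusted p of 0.05, a lower signal of one Kdr probe, and no probe passed with a higher signal. The higher signals of Kdr A_51_P316553 and Robo4 lay near the threshold, and each passed when some single Ftx-/- eyes were left out: Kdr A_51_P316553 without eye 3 (0.21) or eye 10 (0.22), and Robo4 without eye 2 (0.71) or eye 10 (0.71). These were the lowest Ftx-/- eyes for each probe, at 4682 and 4448 for Kdr A_51_P316553 and at 711 and 718 for Robo4. Leaving out the lowest eyes raises a mean, so these passes add no support. Over all tested probes 4925 of 14052 passed (35%), with 2365 higher and 2560 lower. The 7 changes had a median of 0.19 on the log2 scale, and all tested probes had a median of -0.01. Means lay above WT in Ftx-/- females for Tie1, Robo4, Cdh5, Tek, Flt1, Icam2, Pecam1, Kdr A_51_P316553 and Plvap A_55_P2049186. They lay below WT for Cldn5, Plvap A_51_P414653 and Kdr A_55_P2094469. The female groups overlapped for all of these but Kdr A_55_P2094469. In RNA of a dissected eye, fewer endothelial cells and less RNA in each cell cannot be told apart.

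**Figure D1:**
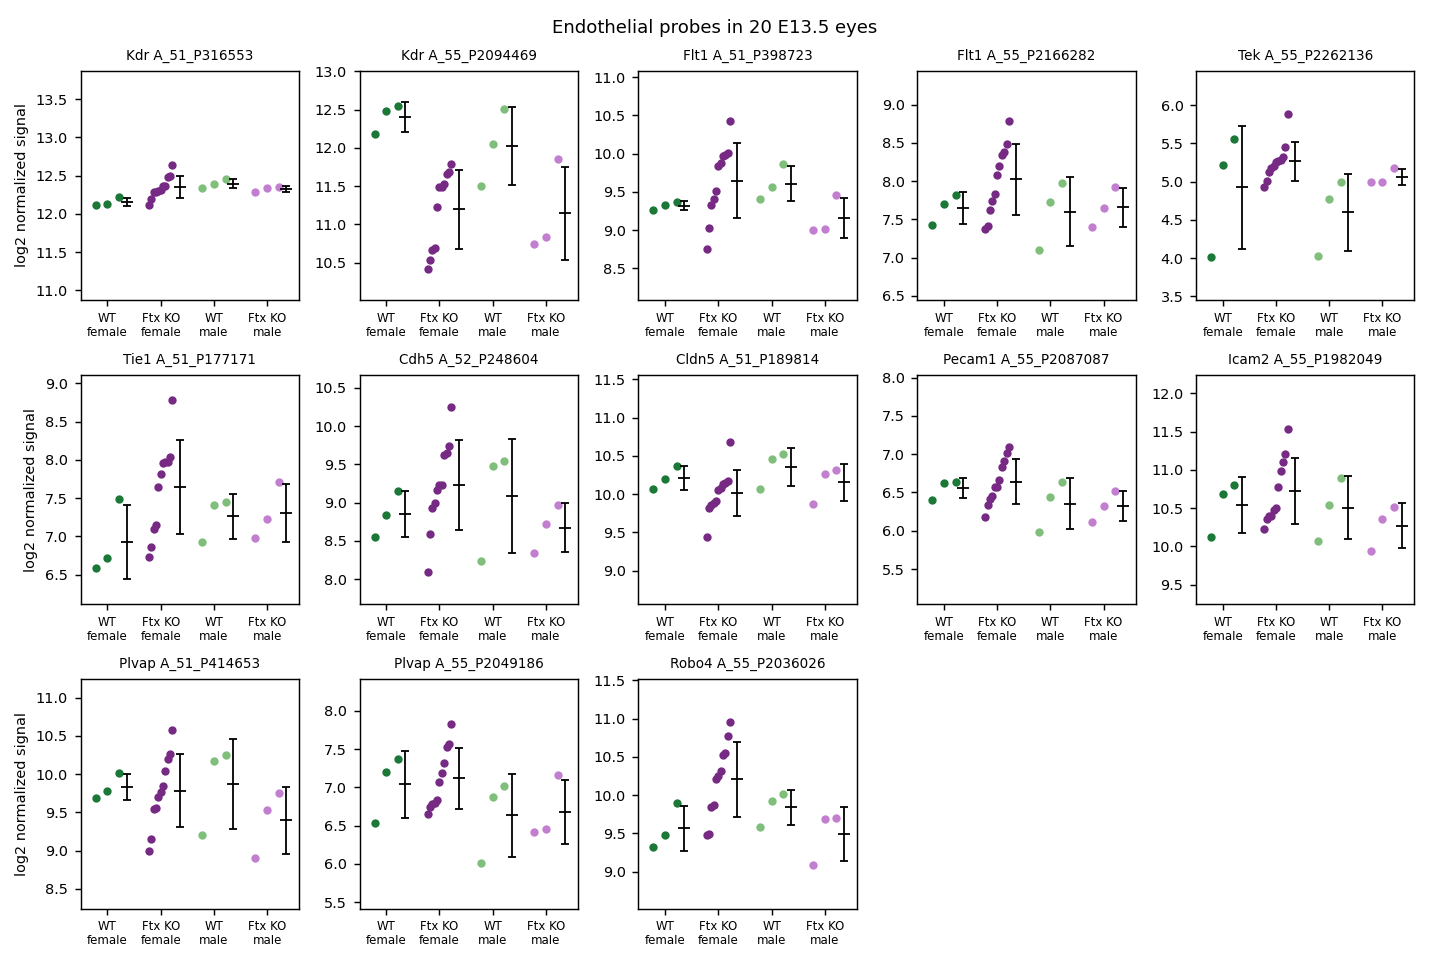
Log2 normalized signal of 13 endothelial probes in each of 20 eyes, 1 panel a probe, with WT females, Ftx KO females, WT males and Ftx KO males side by side. Dots are eyes sorted by value within a group, the black mark is the mean and its bar the SD, and every panel spans 3 log2 units. All 11 Ftx KO female eyes lie below all 3 WT female eyes for the Kdr probe A_55_P2094469, and the female groups overlap for the other 12 probes.

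Kdr, the main receptor for VEGF-A in endothelium and also known to be expressed in retinal progenitor cells, was measured by both probes well above background on all 31 arrays, and the probes disagreed. The probe A_55_P2094469 gave 5999.7, 5703 and 4663 in WT females 1, 2 and 4 and a lowest, median and highest signal of 1370.4, 2869 and 3532 in the 11 Ftx-/- females. Every Ftx-/- eye was below every WT female eye. The log2 fold change was -1.21 ± 0.30 (SE, 11 and 3 eyes), a signal 0.433 times that of WT females, with an adjusted p of 0.00488 in limma. The probe A_51_P316553, printed 10 times on the array, gave 4492, 4759 and 4434 in the same WT females and 4448, 5087 and 6406 as the lowest, median and highest in Ftx-/- females. Here 9 of 11 Ftx-/- eyes were above every WT female eye. Its log2 fold change was 0.19 ± 0.08 (SE), with an unadjusted p of 0.022 and an adjusted p of 0.060 in limma, so it did not pass.

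The lower Kdr probe followed the slide as well as the genotype. In WT males it gave 4229, 5847 and 2893, and in Ftx-/Y males it gave 3688 in eye 1, which shared slide 1 with the WT eyes, and 1829 and 1711 in eyes 2 and 3, which lay on slide 2. Ftx-/Y eye 1 was inside the range of the WT males, and both Ftx-/Y eyes of slide 2 were below it. In Ftx-/- females it gave 1624, 1479 and 1370.4 on slide 2, 3532, 2385, 3293 and 3231 on slide 3, and 1658, 2939.8, 2875 and 2869 on slide 4. All 5 mutant eyes of slide 2, male and female, were thus lower than every WT eye and every eye of slide 3. Against the 3 WT females the log2 fold change was -1.87 with the Ftx-/- eyes of slide 2 alone, -0.82 with those of slide 3 alone and -1.11 with those of slide 4 alone, with adjusted p of 0.0018, 0.0225 and 0.0168 in limma. With slide as a term of the fit it was -0.81 and no longer passed (adjusted p = 0.338 in limma), and this fit draws its bridge between slides from the 3 Ftx-/Y eyes. The part of the slide in this change was not tested further.

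**Figure D2:**
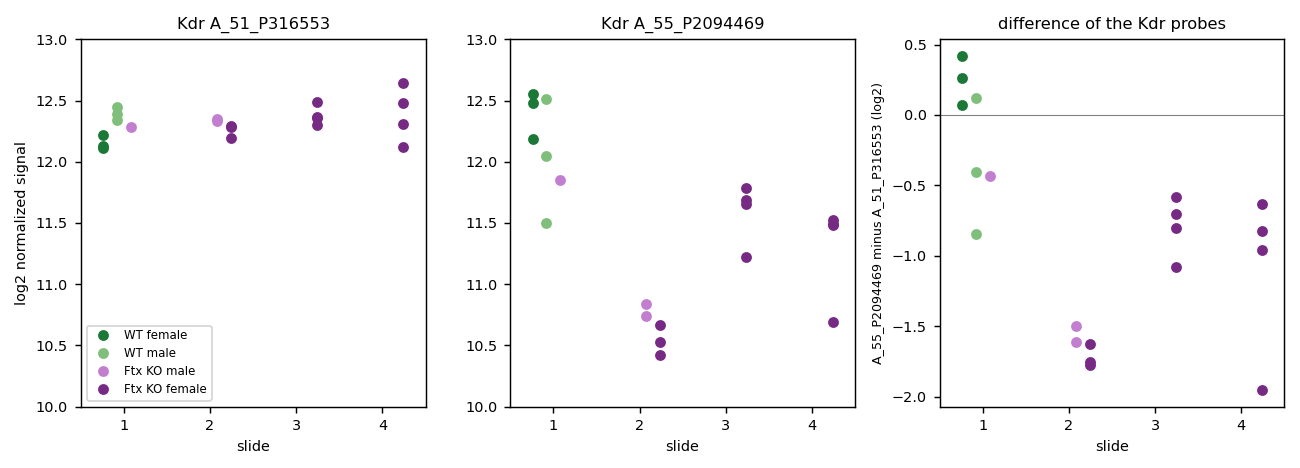
Log2 normalized signal of Kdr probe A_51_P316553 (left) and A_55_P2094469 (middle), and the difference A_55_P2094469 minus A_51_P316553 (right), in 20 eyes by slide, each dot an eye coloured by group. The left probe stays between 12.11 and 12.65 on all slides, while the middle probe spans 10.42 to 12.55 and all 5 eyes of slide 2 lie between 10.42 and 10.84.

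The difference between the Kdr probes within an eye (A_55_P2094469 minus A_51_P316553, log2), in which any change shared by both probes cancels, separated the WT females from all mutants. It was 0.42, 0.26 and 0.07 in WT females and -0.41, 0.12 and -0.84 in WT males. It was -0.44 in Ftx-/Y eye 1 and -1.50 and -1.61 in Ftx-/Y eyes 2 and 3. In Ftx-/- females it ran from -1.77 to -1.63 on slide 2, from -1.08 to -0.58 on slide 3 and from -1.95 to -0.63 on slide 4. All 11 Ftx-/- females were below all 3 WT females, whereas the WT males and the mutants of slides 1, 3 and 4 overlapped. Over the 11 Ftx-/- eyes the probes had a Pearson r of 0.13 (Spearman 0.54), -0.43 after slide means were taken out, and 0.76 without the 2 eyes farthest from the median of A_51_P316553. The relation of the probes to each other thus depended on which eyes and which slide levels were kept. These eyes share slides in groups of 3 and 4, and no p is given.

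Flt1, which binds VEGF tightly and in part holds it away from Kdr, was measured by the probe A_51_P398723 at 614, 663 and 643 in WT females and at 429.9, 919.7 and 1373 as the lowest, median and highest in Ftx-/- females. The WT eyes lay close together, 8 of 11 Ftx-/- eyes were above all of them and 2 were below all of them. The log2 fold change was 0.33 ± 0.25 (SE), with an adjusted p of 0.32 in limma. A second Flt1 probe, A_55_P2166282, which lies 73081 bases from the first and has another transcript model in the annotation, gave 172, 208 and 227 in WT females and 165, 270.4 and 443 in Ftx-/- females. Its log2 fold change was 0.37 ± 0.25 (SE; adjusted p = 0.35 in limma, no minimum), so both Flt1 probes had a similar mean change and neither passed.

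Tie1, the orphan partner of the angiopoietin receptor, gave 96.2, 106 and 179 in WT females and 107, 226 and 439 as the lowest, median and highest in Ftx-/- females. In 7 of 11 Ftx-/- eyes it exceeded all WT females. The log2 fold change of 0.71 ± 0.33 (SE) was the highest of the 13 given for this comparison, with an unadjusted p of 0.044 and an adjusted p of 0.15 in limma (no minimum). Tek, the angiopoietin receptor itself, was near the background, with 37.1, 16.2 and 46.8 in WT females and 30.4, 38.3 and 58.9 in Ftx-/- females. Of the Ftx-/- eyes, 1 of 11 exceeded all WT females. Its log2 fold change was 0.34 ± 0.27 (SE; adjusted p = 0.43 in limma, no minimum), and it turned to -0.12 without WT female 2.

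Cdh5 (VE-cadherin), the cadherin of the endothelial adherens junction, gave 376, 457 and 569 in WT females and 274, 601 and 1213 as the lowest, median and highest in Ftx-/- females. Its Ftx-/- eyes spanned a 4.43-fold range that reached beyond WT at both ends, and the log2 fold change was 0.38 ± 0.33 (SE; adjusted p = 0.47 in limma, no minimum), or 0.23 without WT female 1 and 0.53 without WT female 4. Cldn5, a claudin of endothelial tight junctions, gave 1322, 1070.0 and 1178 in WT females and 696, 1059 and 1635 in Ftx-/- females. It was below all WT females in 6 of 11 Ftx-/- eyes and above all of them in 1. The log2 fold change of -0.20 ± 0.17 (SE) had an adjusted p of 0.38 in limma, and was -0.27 without WT female 2 and -0.12 without WT female 1.

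Pecam1 (CD31), an adhesion molecule at endothelial contacts, gave 99.9, 84.8 and 98.6 in WT females and 72.5, 95.5 and 136 in Ftx-/- females, with 5 of 11 Ftx-/- eyes above all WT females and 2 below all of them. Its log2 fold change was 0.08 ± 0.19 (SE; adjusted p = 0.80 in limma, no minimum), and ran from 0.0089 (without WT female 2) to 0.13 (without Ftx-/- eye 10). Icam2, a ligand for leukocyte integrins, gave 1654, 1112 and 1786 in WT females and 1199.7, 1448 and 2979 in Ftx-/- females. Its 4 highest Ftx-/- eyes exceeded all WT females and none lay below them all. The log2 fold change was 0.19 ± 0.24 (SE; adjusted p = 0.58 in limma), or -0.023 without WT female 2 and 0.32 without WT female 4.

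Plvap, which forms the diaphragms of fenestrated endothelium, was read by probes 8862 bases apart that gave like results. The probe A_51_P414653 gave 882, 824 and 1034 in WT females and 509, 869 and 1526 as the lowest, median and highest in Ftx-/- females, with 4 of 11 Ftx-/- eyes above and 4 below all WT females. The probe A_55_P2049186 gave 166, 92.8 and 148 in WT females and 100.5, 134 and 226 in Ftx-/- females, with 3 of 11 above all WT females. The log2 fold changes were -0.04 ± 0.28 (SE; adjusted p = 0.92 in limma) for the first and 0.08 ± 0.27 (SE; adjusted p = 0.87 in limma, no minimum) for the second. Both standard errors allow a change of some size in either direction, as a p that misses the threshold does not show equal levels.

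Robo4, an endothelial receptor that counteracts VEGF signalling, gave 712, 642 and 950.4 in WT females and 711, 1216 and 1984 as the lowest, median and highest in Ftx-/- females. It exceeded all WT females in 7 of 11 Ftx-/- eyes and lay below all of them in none. The log2 fold change was 0.64 ± 0.26 (SE), with an unadjusted p of 0.023 and an adjusted p of 0.061 in limma, just outside the threshold. It was 0.65 with the Ftx-/- eyes of slide 2 alone, 0.68 with those of slide 3 and 0.60 with those of slide 4, of which only that with slide 3 passed (adjusted p of 0.127, 0.0123 and 0.121 in limma).

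By the study's own criteria (fold above 1.2 or below 0.8 with an unadjusted p under 0.05, here from limma), 2 of the 7 tested probes were called in females, Robo4 as higher and Kdr A_55_P2094469 as lower, where 26.7% of all tested probes met them.

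**Figure D3:**
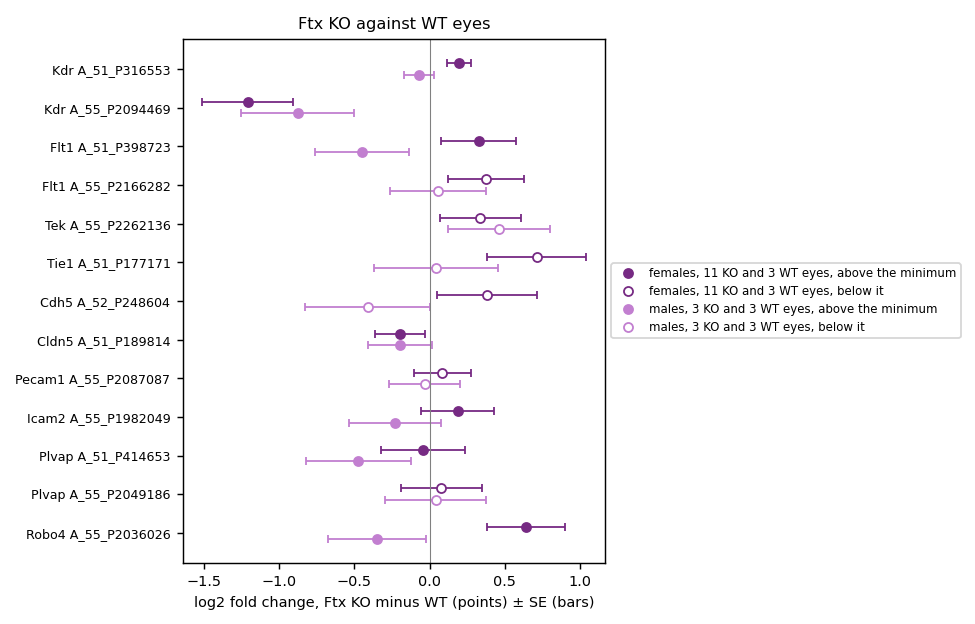
Log2 fold change of Ftx KO against WT eyes (points) with its standard error (bars) for 13 endothelial probes, in females (dark, 11 and 3 eyes) and in males (light, 3 and 3 eyes). Filled points are probes above the minimum signal and open points probes below it; the Kdr probe A_55_P2094469 is lowest in both sexes, at -1.21 and -0.88.

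In males the question was whether Ftx-/Y eyes differed from WT eyes in the same genes. None of the 7 tested probes passed, where 3 of 14052 did over all probes (0.0213%). An unadjusted p under 0.05 in limma was found for 1 of the 7 and for 1656 of all 14052. The methods' t-test also called 0 after adjustment. All 7 tested probes had a mean below WT, from -0.07 for Kdr A_51_P316553 to -0.88 ± 0.38 (SE) for Kdr A_55_P2094469, where 6972 of all 14052 tested probes had a value above 0. The Kdr value of -0.88 had an unadjusted p of 0.031 and an adjusted p of 0.38 in limma. Restricted to Ftx-/Y eye 1, which shared the slide of the WT males, the value for that probe was -0.17. Flt1 A_51_P398723 gave 930.5, 758 and 676 in WT males and 514, 706 and 515 in Ftx-/Y males, and 2 of 3 Ftx-/Y eyes were below all WT males (log2 fold change -0.45 ± 0.31, SE). Plvap A_51_P414653 gave 1157, 1213 and 588 in WT males and 740.2, 865 and 481 in Ftx-/Y males (-0.47 ± 0.35, SE). The third eye was the lowest of its group for Plvap in both genotypes. In males the values of some other lists were also mostly below 0, with 1 of 9 pan-endothelial (median log2 fold change -0.23), 0 of 8 macrophage (-0.27) and 0 of 4 pigment epithelium probes (-0.81) above 0 and Pf4 at -0.74. None of them passed, and their part in the endothelial values was not tested. Of the probes below the minimum, Cdh5 had the lowest change (-0.41 ± 0.42, SE) and Tek the highest (0.46 ± 0.34, SE), with Tek at 27.2, 16.4 and 31.8 in WT males and 32.0, 36.1 and 32.0 in Ftx-/Y males, near the background. With 3 eyes a group, single eyes set much of these values: as each eye was left out, Cdh5 ran from -0.84 (without WT male 3) to -0.18 (without WT male 2), Plvap A_51_P414653 from -0.81 (without WT male 3) to -0.23 (without Ftx-/Y eye 3), and Kdr A_55_P2094469 from -1.23 (without Ftx-/Y eye 1) to -0.63 (without WT male 2).

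Robo4 gave 1031, 971 and 768 in WT males and 832, 822 and 541 in Ftx-/Y males, a log2 fold change of -0.35 ± 0.33 (SE), which ran from -0.48 (without WT male 3) to -0.15 (without Ftx-/Y eye 3) as each eye was left out. Its mean was below WT in males and above WT in females. Tested as a difference of changes, females minus males, this gave 0.99 ± 0.42 (SE) for Robo4, with an unadjusted p of 0.028 and an adjusted p of 0.30 in limma. For Kdr A_51_P316553 it was 0.27 ± 0.13 (SE), with an unadjusted p of 0.048. No endothelial probe passed this test of the difference, nor did any other of the 14052 (0%). In limma 2 of the 7 had an unadjusted p under 0.05, as did 1946 of all 14052. The comparisons share the eyes of their groups and are not independent of each other.

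Ftx-/- females were also set against Ftx-/Y males, where 0 of the 7 tested probes passed and 1.96% of all tested probes did. Robo4 was highest in this comparison, with a log2 difference of 0.72 ± 0.26 (SE) and 9 of 11 female eyes above all 3 male eyes. Its unadjusted p was 0.012 and its adjusted p 0.17 in limma. It was the 1 of 7 with an unadjusted p under 0.05, where 2347 of all 14052 tested probes had one. Between WT females and WT males 0 of the 7 passed, against 0.0712% of all. The closest was Kdr A_51_P316553, at 4492, 4759 and 4434 in WT females and 5602, 5372 and 5196 in WT males, groups that did not overlap (log2 difference -0.24 ± 0.10, SE, unadjusted p = 0.024, adjusted p = 0.41 in limma). Flt1 A_51_P398723 was also lower in all 3 WT females than in all 3 WT males (-0.29 ± 0.31, SE, adjusted p = 0.81 in limma).

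Within the Ftx-/- females, the group with the most eyes, most endothelial probes moved as a set. Leaving out both Kdr probes and Tek, after their values were seen, 10 probes of 8 genes (Flt1, Tie1, Cdh5, Cldn5, Pecam1, Icam2, Plvap and Robo4) varied together from eye to eye. Ftx-/- eye 1 was the highest of the 11 eyes for all 10 probes, and eye 10 was the lowest for 7 of them and eye 2 for the other 3. Between these ends Cdh5 went from 274 in eye 10 to 1213 in eye 1, Tie1 from 107 to 439, Flt1 A_51_P398723 from 429.9 to 1373, Robo4 from 711 in eye 2 to 1984 in eye 1, and Plvap A_51_P414653 from 509 in eye 2 to 1526 in eye 1.

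The span between eyes was 0.91 to 2.15 on the log2 scale over the 10 probes. Repeat arrays of an eye, which carry technical error only, had a median absolute difference of 0.03 to 0.16 a probe and 0.42 at most. In the groups of 3 eyes the log2 SD was larger for some probes and smaller for others. That of Cdh5 was 0.59 in Ftx-/- females and 0.74 in WT males, while that of Robo4 was 0.49 and 0.22 and that of Tie1 was 0.61 and 0.29. In WT females the SDs of these genes were 0.30, 0.29 and 0.48, and differences in spread were not tested. The SD between Ftx-/- eyes was 0.49 for Robo4, larger than that of 94.1% of the tested probes, and 0.49 for Flt1 A_51_P398723, larger than that of 94.1%. Plvap A_51_P414653 exceeded 93.5%, Icam2 91.9% and Cldn5 85.3% of tested probes, whose median SD was 0.15. Kdr differed in this respect between its probes, as A_51_P316553 had an SD of 0.15, larger than that of 47.5%, and A_55_P2094469 one of 0.52, larger than that of 94.6%.

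**Figure D4:**
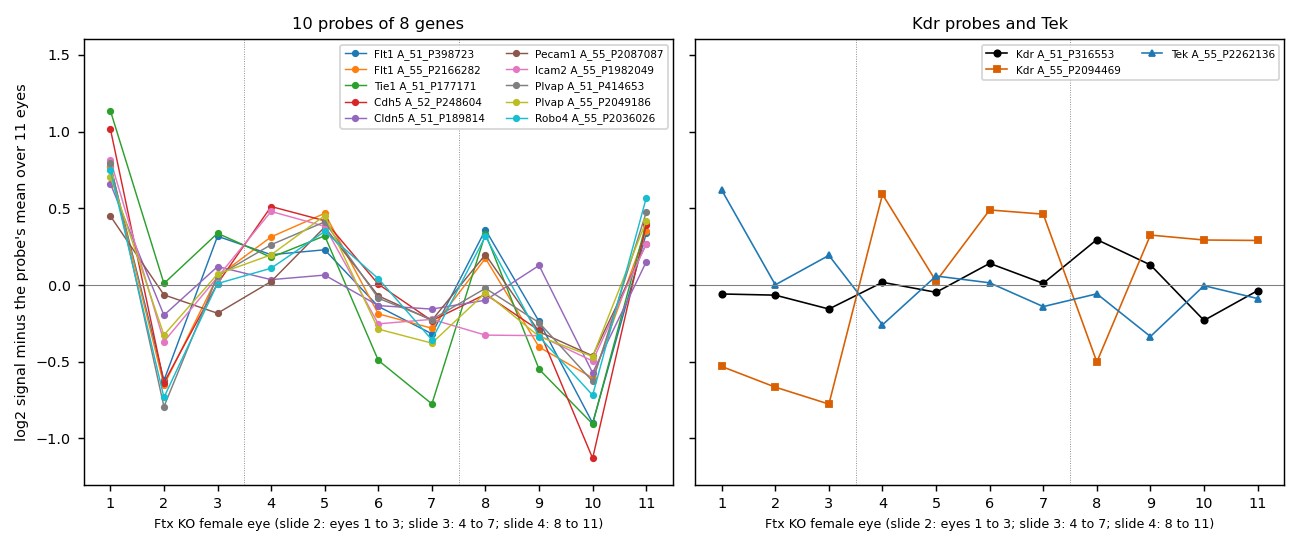
Log2 signal of each probe minus its mean over the 11 Ftx KO female eyes, by eye, for 10 probes of 8 endothelial genes (left) and for both Kdr probes and Tek (right); lines join the values of a probe, the order of eyes carries no meaning, and dotted lines part the slides. All 10 probes on the left are highest in eye 1, and each is lowest in eye 10 or eye 2.

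Over the 11 Ftx-/- eyes the 45 pairs among these 10 probes had a Pearson r between 0.68 and 0.97 (median 0.86) and a Spearman rho between 0.54 and 0.98 (median 0.84). With slide means taken out, r ran from 0.69 to 0.97 (median 0.91). Without the 2 eyes farthest from the median of the first probe of a pair, the median was 0.76 and the lowest 0.42. The closest pair was Flt1 A_55_P2166282 with Plvap A_51_P414653 (r = 0.97). As background, Robo4 had a median r of -0.04 with the 14045 tested probes of other genes over the same eyes. All these points share eyes, arrays and slides, so the values are a description with no p.

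Kdr stood outside this group in both probes. With the 10 probes, A_51_P316553 had an r between -0.18 and 0.26 and A_55_P2094469 one between -0.58 and -0.01. Once the 2 farthest eyes were left out, the median went from 0.10 to -0.34 for A_51_P316553 and from -0.19 to -0.52 for A_55_P2094469. Tek, which lay near background, had an r between 0.42 and 0.63 with them, and a median of -0.01 once the 2 farthest eyes were left out.

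**Figure D5:**
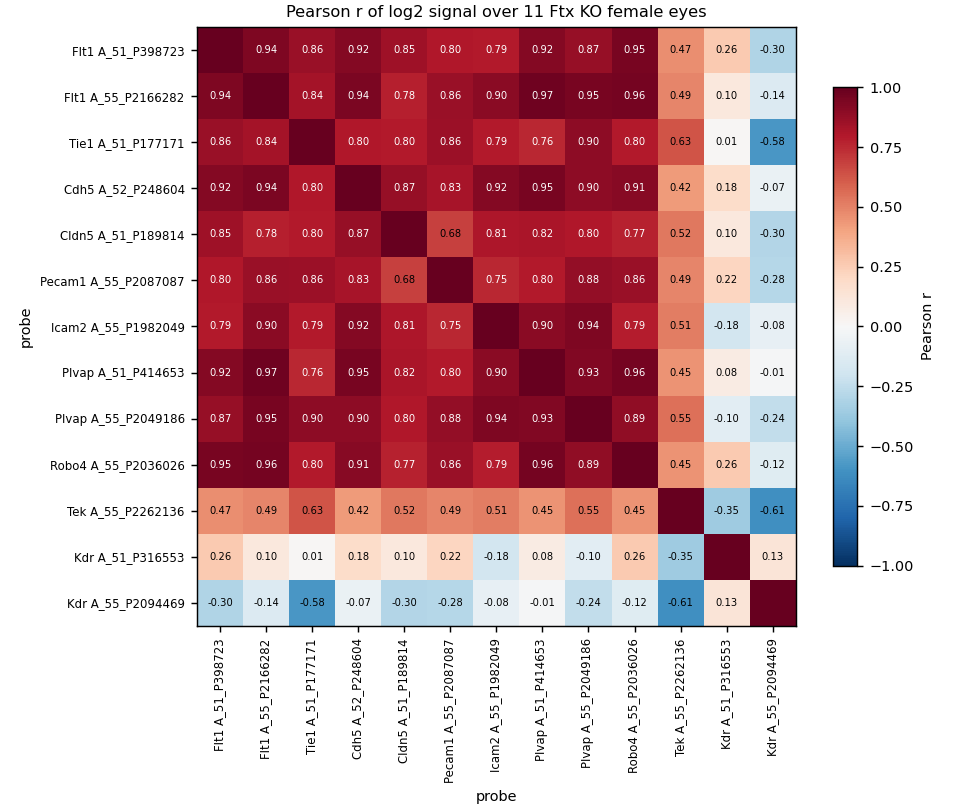
Pearson r of log2 signal over 11 Ftx KO female eyes for each pair of 13 endothelial probes, on a scale from -1 (blue) to 1 (red). The block of 10 probes has values from 0.68 to 0.97, and the rows of the Kdr probes run from -0.61 to 0.26.

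The genes most like the endothelial set over all 20 eyes were Pdgfb (r = 0.93), Mmrn2 (0.92), Plxnd1 (0.91), Cdc42ep1 (0.91) and Gja4 (0.89), measured against the mean of the 7 tested probes, each centred on its own mean. With group means taken out, these were 0.96, 0.92, 0.91, 0.94 and 0.90. Pdgfb is a growth factor that endothelium sends to pericytes, Mmrn2 an extracellular matrix protein of endothelium, Plxnd1 a semaphorin receptor of vessels, and Gja4 a connexin of arterial endothelium. None of these 5 passed between Ftx-/- and WT females, with log2 fold changes from -0.11 to 0.07. Pdgfb, for one, gave 488 to 535 in WT females and 322 to 779 in Ftx-/- females.

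Other cell types were followed through lists of their genes over the 11 Ftx-/- eyes, as the r of each tested probe with the same endothelial mean. The median was 0.84 over 9 probes of pan-endothelial genes (Mmrn2 0.94, Cd93 0.91, Cd34 0.89), 0.38 over 8 of arterial and tip cell genes (Esm1 0.93) and 0.49 over 3 of mural cell genes. It was -0.02 over 4 probes of venous and lymphatic genes, -0.05 over 5 of barrier endothelium genes and -0.16 over 11 of junction and adhesion partners, with 2 of the 11 above 0. Macrophage genes had a median of 0.74 over 8 probes and all 8 were above 0, led by Csf1r, the receptor of the macrophage growth factor (0.96), Fcer1g (0.86), Cx3cr1 (0.84) and the complement gene C1qc (0.84). The platelet gene Pf4, the 1 tested gene of its list, had 0.88. Periocular mesenchyme had a median of 0.24 (2 probes), pigment epithelium 0.21 (4) and erythroid genes 0.14 (9), while neural retina had -0.33 (11) and lens -0.49 (12), with no probe of either above 0. All 14045 other tested probes had a median of -0.07, and 40.6% of them were above 0. Without eyes 1 and 10 the medians were 0.80 for pan-endothelial, 0.47 for arterial and tip cell, 0.40 for mural cell, 0.76 for macrophage and -0.45 for lens genes, and 0.80 for Pf4. Those of other lists moved further: periocular mesenchyme to 0.07, pigment epithelium to 0.06, erythroid genes to 0.02, neural retina to -0.59, venous and lymphatic genes to -0.25 and junction partners to -0.31, while barrier endothelium turned to 0.19. The part that the mix of tissues in each dissected eye has in these values was not tested.

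Ligands and partners of the receptors had a median r of 0.17 with the endothelial mean over 10 probes, from -0.49 to 0.49, and 6 of the 10 were above 0. Without eyes 1 and 10 the median was 0.06. Between Ftx-/- and WT females 2 of these 10 probes rose and 2 fell (40%, near the 35% of all tested probes), and the median log2 fold change was -0.28. Vegfb, a ligand of Flt1, fell by 0.48 on the log2 scale (adjusted p = 0.000329 in limma), from 2438 to 2738 in WT females to 1603 to 1995 in Ftx-/- females, groups that did not overlap. Vegfc, a ligand of Flt4 and Kdr, rose by 0.39 (776 to 1044 against 1040 to 1479, adjusted p = 0.00792), and the netrin and Robo4 partner Unc5b rose by 0.45 (3987 to 5423 against 4633 to 8269, adjusted p = 0.0220). One of 3 Vash1 probes, A_55_P2109057, fell by 0.53 (adjusted p = 0.00670). Vegfa, the chief ligand of Kdr, had probes with values of -0.44 (adjusted p = 0.0924) and 0.22 (adjusted p = 0.239) and neither passed.

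Below the minimum, in the fit without one, the VEGF co-receptor Nrp1 was higher in Ftx-/- females, at 127 to 197 against 101 to 113, with a log2 fold change of 0.56 ± 0.13 (SE; adjusted p = 0.00597 in limma). The Tek ligand Angpt1 was also higher there, at 85.0 to 170 against 41.3 to 101, with 1.02 ± 0.23 (SE; adjusted p = 0.00598). Angpt2, the other Tek ligand, had 0.29 (adjusted p = 0.320), the Flt1 ligand Pgf 0.02 (adjusted p = 0.946) and the Tek phosphatase Ptprb 0.33 by its 1 of 3 probes that was well above background on every array (adjusted p = 0.494). The Flt4 probe was well above background on 3 of 22 Ftx-/- arrays and on none of the others.

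The remaining vascular lists gave these counts of tested probes called in females, to be read against the 35% of all tested probes. The lists are short, and no list was tested against the rest. Pan-endothelial genes had 1 higher (Arhgef15, 0.86) and 1 lower (Lmo2, -0.41) of 9, with a median log2 fold change of 0.10. Junction and adhesion partners had 4 higher (Pard3 A_52_P51548, 0.27, Tjp1, 0.26, and Ctnnb1, 0.25, foremost) and 3 lower (Pard3 A_55_P1985012, -0.70, Jam2, -0.29, and Pard3 A_55_P1985025, -0.21) of 11. Pard3 A_55_P1985012 lay just above the minimum signal in the WT females that set it, with a mean of 514, and below it in the other groups, with 330.1 in Ftx-/- females. Arterial and tip cell genes had 3 higher (Efnb2, 0.56, Unc5b, 0.45, and Hey1, 0.28) and 0 lower of 8, venous and lymphatic genes 1 higher (Nr2f2, 0.28) and 1 lower (Prox1, -0.85) of 4, barrier endothelium 1 higher (Itm2a, 0.26) of 5, and mural cells 2 lower (Ndufa4l2, -0.48, and Notch3, -0.25) of 3. Efnb2, Prox1, Nr2f2 and Ctnnb1 are also expressed by other cells of the eye, and which cells gave the signal of any listed gene was not tested. In males none of these probes passed.

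Lists of genes of other tissues were read in the same way, against the 35% of all tested probes called in females. A summed signal is set mostly by the brightest probes of its list and does not stand for the list's genes as a set. The summed signal of 12 lens probes was 1172780 to 1282540 in WT females and 924645 to 1181000 in Ftx-/- females, and 10 of the 12 were lower in the female comparison (Bfsp1, -1.11, and Lim2, -1.04, among them). The 4 pigment epithelium probes summed to 5497 to 8152 in WT females and 3614 to 36427 in Ftx-/- females, with 1 of 4 higher (Mitf, 0.73). Erythroid genes had 3 of 9 higher in females (Hbb-bh1, 1.28, and both Hbb-y probes, 0.73 and 0.53), with sums of 328182 to 356793 and 309055 to 589809. In males 9 of 9 erythroid probes, and 1656 of all 14052 tested probes, had an unadjusted p under 0.05 in limma. None of the 9 passed after adjustment, with sums of 288732 to 376954 in WT and 428589 to 907001 in Ftx-/Y eyes. Macrophage genes had 1 of 8 called, as higher (Cx3cr1, 0.52), and it was the only 1 of the 8 above 0. Their median log2 fold change in females was -0.10 and the lowest -1.17, with sums of 29588 to 33357 and 9822 to 33644. Periocular mesenchyme had 1 of 2 higher (Col1a2, 1.09) with sums of 3693 to 5004 and 4946 to 25619. Neural retina had 3 higher (Sox2, 0.37, and Isl1, 0.33, among them) and 1 lower (Atoh7, -0.32) of 11, and platelets 0 of 1. The part of these tissues in the endothelial comparison was not tested.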

How the data were processed

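Eyes of E13.5 mouse embryos were profiled on 31 whole-genome Agilent arrays of 1 colour (Cy3). The authors deposited, per the file headers, the background-subtracted intensity of each spot from Feature Extraction 11.0.1.1, not normalized between arrays, and a series table that holds the same values rounded. Genome positions of probes are those of the array annotation (mm9). Here 5751 flagged spots were left out, spots of a probe averaged, arrays normalized by quantile splines as in the study's methods, the 2 arrays of an Ftx-/- eye averaged, and probes with a mean WT female signal above 500 tested with limma 3.58.1 (R 4.3.3; tables read with version 1.17.8 of data.table) over 20 eyes in 1 fit of 4 groups with a trend on the mean. P-values are two-sided, adjusted by Benjamini-Hochberg over all probes tested, and called under 0.05. Endothelial probes below the minimum were taken from the same fit without it.

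Genes named beside the 10 endothelial genes were, from each list, up to 3 probes with the largest rise and fall among those called in females, known ligands and partners, and the 5 genes most like the endothelial mean; other list genes given with an r were named after their values were seen, and some genes that the rule would name are not reported here. Members and lists were chosen with earlier results of these data known. Groups came from the sample labels. Depth has no counterpart on arrays, where the number of eyes limits the precision. Alternatives were other normalizations, other minimums, single arrays, the slide and the replicate number as blocks, eyes of 1 slide, each eye left out and the methods' t-test. Before use, the scripts were checked on simulated data of known answers.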

Additional observations from a re-analysis of the deposited data

How the results depend on the processing

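The lower Kdr A_55_P2094469 signal in Ftx-/- females kept its call in every alternative but the slide as a fixed term (-0.81), and ran from -1.32 to -1.13 as each eye was left out. Of the 7 endothelial probes tested in females 1 was called, against 2 with 75th percentile normalization, the series table, the first array of each eye, the methods' t-test or the study's criteria, 3 with the Ftx-/- eyes of slide 3 alone, and 0 with slide as a fixed term. Leaving out each eye gave 1 to 3, with 2 without Ftx-/- eye 2 or 3 and 3 without eye 10. The calls gained were higher signals of Kdr A_51_P316553 (75th percentile, first array, t-test, slide 3, without eye 3 or 10) or Robo4 (series table, study's criteria, slide 3, without eye 2 or 10). Each single eye left out in these gains was among the lowest Ftx-/- eyes for its probe. The study's criteria called 1 probe in males, 1 between Ftx-/- females and Ftx-/Y males, and 2 for the difference of changes, against 0 each. Shares of all tested probes called in these alternatives are not reported here, other than 26.7% for the study's criteria in females. The counts are thus not set against those of other genes.

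Changes that turned in sign were all of probes that passed no threshold, and the cause was not tested. In females these were, with 75th percentile normalization, Pecam1 -0.18, Tek -0.33 and Plvap A_55_P2049186 -0.096. With the series table, which moved the median of all tested probes to 0.25, they were Tek -0.091, Cldn5 0.081 and Plvap A_51_P414653 0.22. With slide as a fixed term they were Cldn5 0.17, Plvap A_51_P414653 0.17 and Plvap A_55_P2049186 -0.11. Plvap A_51_P414653 also gave 0.029 with normexp, 0.024 with a random slide block, 0.018 with the methods' t-test and 0.046 with slide 3 alone, and on slide 4 alone Icam2 gave -0.035 and Plvap A_55_P2049186 -0.030. Leaving out each eye, Tek ran from -0.12 to 0.65, Icam2 from -0.023 to 0.32, Plvap A_51_P414653 from -0.12 to 0.048 and Plvap A_55_P2049186 from -0.17 to 0.24. In males, 75th percentile normalization gave Tek -0.027, Tie1 -0.14, Flt1 A_55_P2166282 -0.068 and Plvap A_55_P2049186 -0.20, and the series table -0.14, -0.25, -0.18 and -0.32. A fixed slide term and slide 1 alone both gave Pecam1 0.16, Tie1 -0.035 and Plvap A_55_P2049186 -0.18, a random slide block Tie1 -0.054 and Plvap A_55_P2049186 -0.022, and normexp Pecam1 0.0063. Leaving out each eye, Pecam1 ran from -0.22 to 0.11, Tie1 from -0.16 to 0.21, Flt1 A_55_P2166282 from -0.20 to 0.24 and Plvap A_55_P2049186 from -0.27 to 0.23.

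The labels do not say whether equal replicate numbers link eyes, and the eyes were treated as unpaired. The deviations of same-numbered eyes from their group means had an r from -0.60 to 0.30. Differently numbered eyes were not set beside them, so this range cannot decide the question. With the replicate block, Kdr A_55_P2094469 was -1.37 in females, Cldn5 0.022 and Plvap A_51_P414653 0.19. The 3 WT females, all on 1 slide, limit what any of these comparisons can show.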
